A study of Mus musculus with 18 samples.

Results

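Whole lungs of C57BL/6 mice that received resiquimod before an ovalbumin aerosol were compared with whole lungs of C57BL/6 mice that inhaled phosphate-buffered saline (PBS). The comparison uses 6 of the 18 arrays of the series, 3 for each group, chosen by the strain and treatment given in the sample labels and not by any measured value. All 45037 probe sets other than the array maker's controls were tested. Every mouse was a male of 16 weeks with an Affymetrix array of its own, and every mouse, the PBS group included, had first been sensitized against the allergen ovalbumin, the main protein of egg white, by 3 weekly injections of 100 µg in alum into the abdomen. The resiquimod group then inhaled 1% ovalbumin for 30 min on each of 3 days, starting 7 days after the last sensitization, with 100 µg of resiquimod injected into the abdomen on 3 consecutive days, beginning 1 day before the first challenge. The C57BL/6 ovalbumin group inhaled 1% ovalbumin with no resiquimod. The PBS group inhaled PBS at the same times. The A/J strain had the same 3 groups of 3 mice, which are used here to choose allergen-responsive genes and to compare strains. No group received resiquimod without ovalbumin, so what resiquimod does on its own and what it does to the allergen response cannot be told apart. The labels name no injection of vehicle for the ovalbumin and PBS groups.

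Resiquimod is a small molecule of the imidazoquinoline class that activates Toll-like receptor 7 (Tlr7), an endosomal sensor of single-stranded RNA found in plasmacytoid dendritic cells, B cells, monocytes and macrophages. Tlr7 signals through the adaptor Myd88 and leads to interferon and interleukin-12 production, which favour natural killer (NK) cells and type 1 helper T cells. Allergic airway disease is driven by the opposing type 2 cytokines, chiefly Il4, Il5 and Il13, which raise mucus genes in airway epithelium, chitinase-like and resistin-like proteins in macrophages and epithelium, and chemokines that attract eosinophils.

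Values are log2 intensities, so a difference of 1 is a 2-fold difference. A gene is taken at its brightest probe set and is called where limma's moderated test gave a Benjamini-Hochberg adjusted p under 0.05 over all 45037 probe sets. Of all values 25% lie under 3.33, and genes near that level are close to the weakest signals on the array. In whole lung, fewer cells of a type and less RNA per cell cannot be told apart. Where nothing else is said, a change is that of resiquimod with ovalbumin minus PBS, with its standard error and 3 arrays in each group.

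Sftpc, the surfactant protein of alveolar type 2 cells, lay between 13.73 and 13.83 on the resiquimod arrays and between 13.80 and 13.86 on the PBS arrays. Arrays of the same group correlated with Pearson r of 0.987 or more across probe sets. The 16 measured transcripts of squamous epithelium, a tissue outside the lung, averaged from 6.90 to 8.07 on 8 of the 18 arrays and from 3.97 to 4.41 on the other 10. In C57BL/6 the arrays that carried them were resiquimod 2, ovalbumin 1, PBS 1 and PBS 3, and skeletal muscle transcripts followed the same arrays. Transcripts of cardiac muscle averaged 7.65, 8.45 and 7.69 on the resiquimod arrays, against 9.67, 9.80 and 9.51 on the PBS arrays. With squamous transcripts as a term in the fit, chosen after seeing the data, 3278 probe sets were called higher and 2721 lower against PBS, compared with 3195 and 2394 without it. The part of heart muscle was not tested. Because 8 arrays carry squamous transcripts, the main counts below are also given for the arrays without squamous transcripts, which leave 2 resiquimod arrays and 1 PBS array. Nnt, a mitochondrial transhydrogenase that is disrupted in the C57BL/6J substrain, was at 8.35, 8.41 and 8.27 in resiquimod lungs and at 8.45, 8.35 and 8.40 in ovalbumin lungs, against 7.04, 7.27 and 6.90 in PBS lungs. Wdfy1, another gene that differs between C57BL/6 substrains, was 1.15 ± 0.09 higher in resiquimod than in PBS lungs (adjusted p = 2.9e-07). A difference in substrain between the PBS mice and the others cannot be told apart from treatment for genes whose level is alike in the resiquimod and ovalbumin groups, and for this reason the counts against the ovalbumin group, a comparison that shares the resiquimod arrays, are given beside those against PBS for the gene lists.

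**Figure D1:**
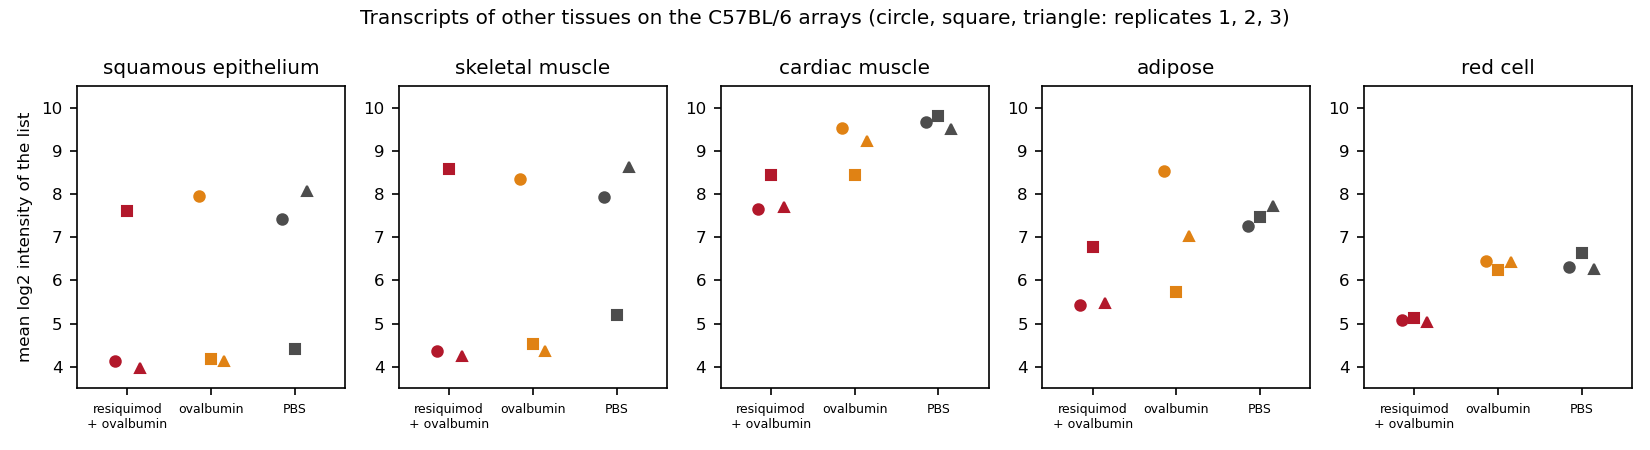
Mean log2 intensity of marker lists of squamous epithelium, skeletal muscle, cardiac muscle, fat and red cells on the 9 C57BL/6 arrays, with 1 symbol per array (circle, square and triangle for replicates 1, 2 and 3). Whether the cardiac muscle and red cell transcripts come from within the lung was not tested. Squamous and skeletal muscle transcripts split the arrays within groups, whereas cardiac muscle and red cell transcripts are lower on all 3 resiquimod arrays than on the 3 PBS arrays.

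Against PBS, 1749 of 18193 genes were called higher in resiquimod-treated lungs (9.61%) and 1303 were called lower (7.16%), with a median change over all genes of -0.02. Of these, 371 rose and 67 fell at least 2-fold. Against the ovalbumin group, 1055 genes were called higher (5.8%) and 836 lower (4.6%). These shares are the background against which the lists of genes below are read. They hold for the main fit at an adjusted p under 0.05. On the arrays without squamous transcripts far fewer probe sets are called in all, so the shares are no background for those counts. The same holds for counts at an unadjusted p under 0.05, for which the share of all genes is not given. The 15 largest rises were Klra7, Gzmb, Gzma, Klra8, Cxcl9, Clca1, Saa3, Ccl5, Fcgr4, Prf1, Nkg7, Klrg1, Gimap7, Birc5 and Tbx21, among them genes of NK cells and cytotoxic lymphocytes. The 15 largest falls were Alas2, Thrsp, Hbb-b2, Cyp1a1, Nppa, Retn, Tmem45b, Car3, Smpx, Tnnc1, Cd209a, Fmod, Srl, Mgl2 and Myl4, among them genes of red cells, fat and heart muscle and the lectins Cd209a and Mgl2. The calls of Nppa and Srl were lost without the first or the third resiquimod array, that of Smpx also without the first or the third PBS array, and that of Car3 also without any 1 of the PBS arrays.

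**Figure D2:**
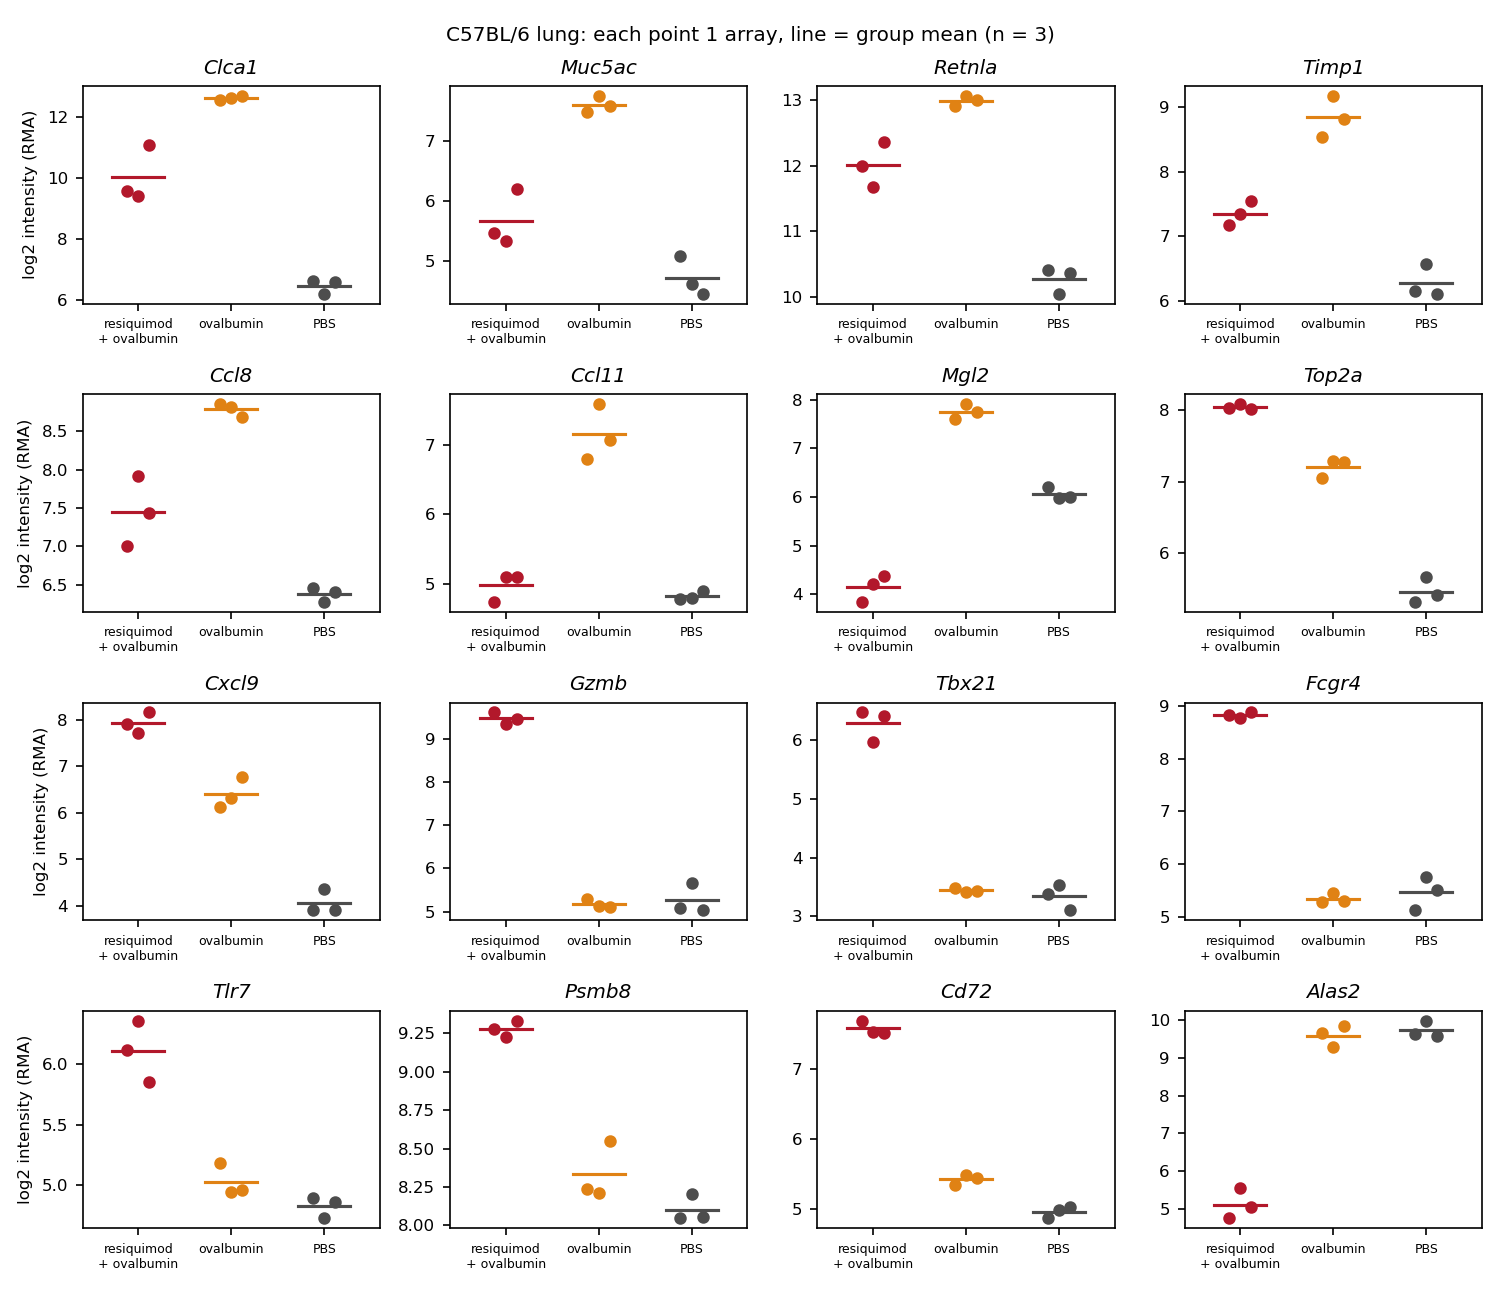
Log2 intensity of 16 genes in C57BL/6 lungs that received resiquimod with ovalbumin, ovalbumin or PBS, with 1 point per array and a line at the mean of 3. Clca1, Muc5ac, Retnla, Timp1 and Ccl8 lie between the ovalbumin and PBS groups with resiquimod, Ccl11 lies at the PBS level and Mgl2 below it, whereas Gzmb, Tbx21, Fcgr4, Tlr7 and Cd72 are high in the resiquimod lungs alone among the 3 groups.

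The transcript of the receptor that resiquimod activates was itself raised at its brightest probe set. Of the 3 Tlr7 probe sets 1 was called higher, and their changes ran from 0.29 to 1.28. Tlr7 was at 6.12, 6.36 and 5.85 in resiquimod lungs and 5.18, 4.95 and 4.96 in ovalbumin lungs, against 4.90, 4.73 and 4.86 in PBS lungs. The resiquimod values lay above all others in C57BL/6, with a change of 1.28 ± 0.10 against PBS (adjusted p = 4.2e-07) and 1.08 against ovalbumin (adjusted p = 5.7e-06). In the list of Toll-like receptors and their adaptors, 8 of 23 measured members rose and none fell, with 11 higher and 0 lower at an unadjusted p under 0.05, and with a median of 0.25. Against ovalbumin 6 were higher and none lower (median 0.11). The 8 included Tlr13, a sensor of bacterial ribosomal RNA (1.58 ± 0.12), Tlr1, which recognises lipopeptides together with Tlr2 (1.33 ± 0.19), Irf5, a transcription factor downstream of Tlr7 (0.94 ± 0.16), Unc93b1, which carries endosomal receptors to their compartment (0.49 ± 0.08), and Myd88 (0.40 ± 0.09). Of the 2 probe sets of Irf5 1 was called, and the lower change was -0.03. Without the arrays with squamous transcripts 2 members were called. Tlr9 and Tlr3, which are also endosomal nucleic acid receptors, changed by -0.19 and 0.10 and were not called.

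To ask what remained of the allergic response, the genes that ovalbumin raised in A/J lungs were followed in C57BL/6 lungs, so that no array served both to choose the genes and to measure them. Ovalbumin raised 582 genes in A/J. In C57BL/6, resiquimod with ovalbumin minus PBS called 286 of them higher (49.1%) and 39 lower (6.70%), with a median change of 0.33. Compared with the C57BL/6 ovalbumin group, 136 of the 582 were higher and 145 lower, with a median of -0.02. The median change of these genes with ovalbumin minus PBS in C57BL/6, a comparison that shares the PBS arrays, was 0.38. Among the 113 genes raised at least 2-fold in A/J, 60 were above PBS and 6 below in the C57BL/6 resiquimod lungs, while 48 were below and 26 above the ovalbumin lungs. The median of these stronger genes was 0.81 against PBS and -0.29 against ovalbumin. Of the 215 genes that ovalbumin lowered in A/J, 103 were lower and 5 higher than PBS in the C57BL/6 resiquimod lungs. With the arrays that carried squamous transcripts left out, 161 of the 582 genes were called higher and 13 lower.

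**Figure D3:**
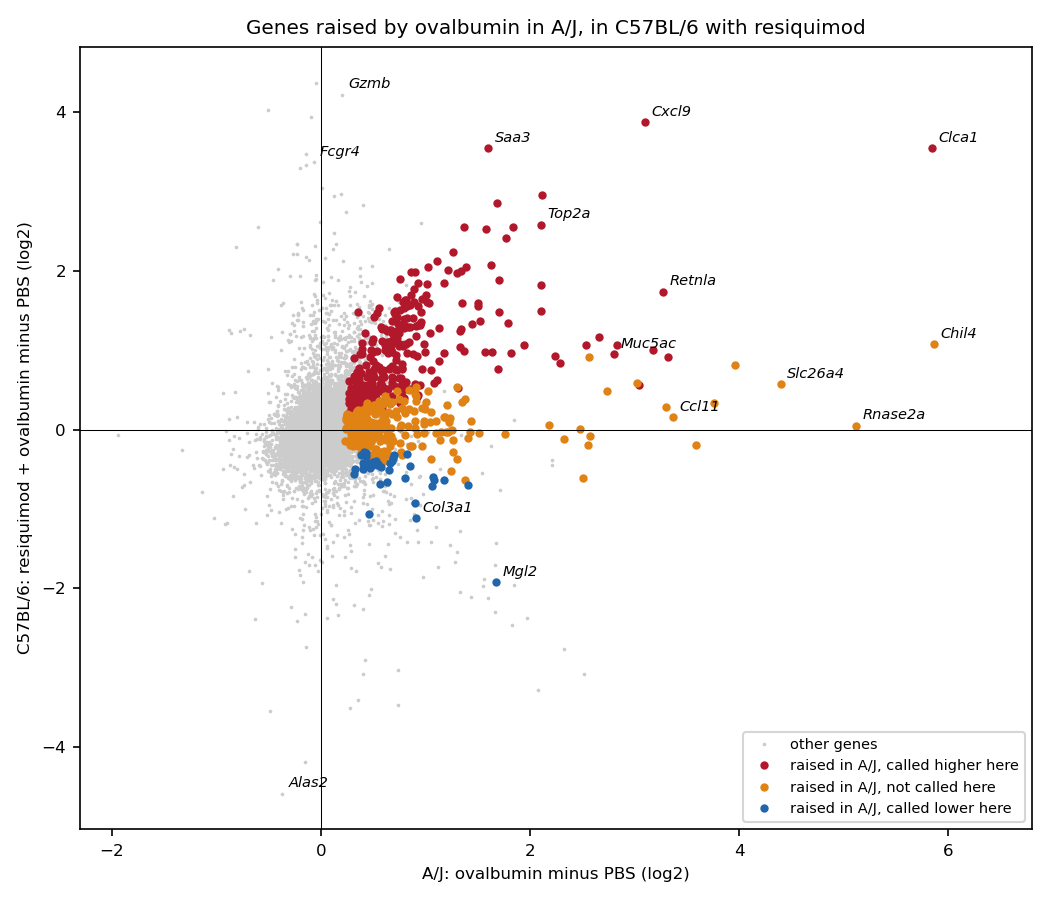
Change with ovalbumin in A/J lungs (horizontal axis, log2) against the change with resiquimod and ovalbumin minus PBS in C57BL/6 lungs (vertical axis, log2), 1 point per gene. Of 582 genes raised in A/J, 286 are called higher here and 39 are called lower, and Gzmb and Fcgr4 are high in C57BL/6 resiquimod lungs with little change for ovalbumin in A/J.

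Some mucus genes stayed above PBS, and most were below the ovalbumin level. Clca1, a secreted regulator of goblet cell mucus, was at 9.59, 9.41 and 11.09 in resiquimod lungs and at 12.56, 12.62 and 12.68 in ovalbumin lungs, against 6.65, 6.22 and 6.59 in PBS lungs. The 3 groups did not overlap, and Clca1 was 11.7-fold above PBS (3.55 ± 0.48, adjusted p = 8.3e-05) and 2.59 below ovalbumin on the log2 scale (adjusted p = 0.0024). Muc5ac, the main inducible airway mucin, reached 5.46, 5.33 and 6.20 in resiquimod lungs and 7.48, 7.75 and 7.58 in ovalbumin lungs, against 5.07, 4.62 and 4.45 in PBS lungs, a change from PBS of 0.95 ± 0.24 with resiquimod (adjusted p = 0.014). In the mucus and goblet cell list 5 of 19 members rose and 1 fell, with a median of 0.33. The other risers were Tff2, a trefoil peptide of mucus (1.00 ± 0.29), Agr2, which folds mucins (0.92 ± 0.29), and Fcgbp, a mucus protein (0.56 ± 0.17), and Creb3l1, a secretory pathway factor, fell by 0.32. Against ovalbumin, 13 of the 19 were lower and 0 higher, also at an unadjusted p under 0.05, with a median of -0.94. The third resiquimod array was the highest for all 5 risers, and without it, or without the second PBS array, 1 member was called higher, and 2 without the first or the third PBS array. Tff2 and Agr2 lost their calls without that resiquimod array or any 1 of the PBS arrays, Agr2 in 12 of 18 settings in all, among them the 6 arrays of the comparison alone and the squamous term, and Muc5ac without it or the second or the third PBS array. On the arrays free of squamous transcripts 2 of the 19 were called higher. Slc26a4, the anion exchanger pendrin, was at 5.33, 5.53 and 5.64 in resiquimod lungs and 8.22, 9.20 and 9.09 in ovalbumin lungs, against 4.66, 4.88 and 5.24 in PBS lungs, and its change from PBS was not called (0.57, adjusted p = 0.083).

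The macrophage and epithelial proteins of the type 2 response split in several ways. Retnla, the resistin-like protein Fizz1, was between 11.68 and 12.36 in resiquimod lungs, against 10.41, 10.05 and 10.36 in PBS lungs, and was 1.74 ± 0.13 above PBS (adjusted p = 1.7e-07) and 0.98 below ovalbumin on the log2 scale (adjusted p = 0.00013). Chil3, the chitinase-like protein Ym1, was 0.84 ± 0.11 above PBS (adjusted p = 6.8e-05) and within 0.28 of the ovalbumin group, a difference that was not called. Its relative Chil4 was at 3.92, 4.30 and 6.06 with resiquimod and at 8.95, 10.09 and 9.38 with ovalbumin, against 3.72, 3.40 and 3.91 with PBS. Chil4 was 4.72 below the ovalbumin group on the log2 scale (adjusted p = 1.5e-06) and not called against PBS (1.08, adjusted p = 0.097). Rnase2a, an eosinophil-associated ribonuclease, was at 4.22, 4.00 and 3.82 in resiquimod lungs and ran from 7.25 to 8.45 in ovalbumin lungs, against 3.56, 4.08 and 4.25 in PBS lungs. Mgl2, a galactose-binding lectin of dendritic cells and alternatively activated macrophages, fell below PBS, with 3.84, 4.20 and 4.37 in resiquimod lungs against 6.21, 5.99 and 5.99 in PBS lungs (-1.92 ± 0.15, adjusted p = 3.5e-07), and was 3.62 below ovalbumin. Cd209a, the dendritic cell lectin DC-SIGN, fell by 2.26 ± 0.21 (adjusted p = 2.1e-06). In the whole list 4 of 16 members rose, 2 fell and the median was -0.03, and against ovalbumin 11 were lower and 0 higher, also at an unadjusted p under 0.05. When arrays with squamous transcripts were left out, 2 rose and 2 fell. Rnase2a, Chil4 and Slc26a4 were picked after their values were seen.

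Among the CC chemokines of the allergic lung, Ccl8, Ccl7, Ccl12, Ccl2 and Ccl1 were above PBS, Ccl22 was below it, and Ccl11, Ccl24 and Ccl17 were not called. Ccl8 was at 7.0, 7.92 and 7.43 in resiquimod lungs, against 6.46, 6.27 and 6.40 in PBS lungs (1.07 ± 0.28, adjusted p = 0.018), and Ccl7, Ccl12, Ccl2 and Ccl1 rose by 1.06, 0.93, 0.76 and 0.52. Ccl11, the eosinophil attractant eotaxin, was at 4.73, 5.10 and 5.09 in resiquimod lungs and 4.78, 4.79 and 4.89 in PBS lungs, overlapping groups with a change of 0.15 ± 0.22 (adjusted p = 0.75), and was 2.18 below the ovalbumin lungs (adjusted p = 9.2e-06). Ccl24 and Ccl17, ligands of Ccr3 and Ccr4, changed by -0.20 and -0.61 and were not called, and they were 2.09 and 2.69 below ovalbumin on the log2 scale. Ccl22, also a ligand of Ccr4, fell by 0.70 ± 0.10 (adjusted p = 0.00021). Of 9 members 5 rose and 1 fell against PBS, 5 were lower and 0 higher than with ovalbumin, and the number that rose lay between 1 and 3 when any 1 of the 6 arrays was left out, and was 0 without the arrays with squamous transcripts. Ccl12 lost its call without any 1 of the 6 arrays, Ccl8 without the second or the third resiquimod or the second PBS array, and Ccl7 without the third resiquimod or the second PBS array. The Ccl2, Ccl7, Ccl8 and Ccl12 genes are close relatives, and a probe set may take up signal from a neighbour.

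The type 2 cytokines themselves were at the weak end of the array in every group. Il13 was at 3.44, 3.70 and 3.63 in resiquimod lungs and 3.66, 3.70 and 3.37 in PBS lungs, and Il4 and Il5 changed by 0.14 and -0.01, none of them called. In the type 2 list 2 of 20 members rose, which is close to the background of all genes, and 1 without the arrays with squamous transcripts, and 1 was higher and 2 lower than with ovalbumin. The 2 risers were Crlf2, the thymic stromal lymphopoietin receptor chain (0.70 ± 0.10), and Csf2rb, the shared beta chain of the interleukin-3, interleukin-5 and GM-CSF receptors (0.57 ± 0.10). Il33, an epithelial alarmin, was at 8.74, 9.02 and 8.85 in resiquimod lungs and 9.76, 10.33 and 10.12 in ovalbumin lungs, against 9.22, 8.94 and 9.57 in PBS lungs, a change from PBS of -0.38 with resiquimod that was not called. In the eosinophil list 1 of 8 members, again Csf2rb, was called, and the granule protein genes Prg2 and Epx changed by -0.03 and 0.17 and were not called. Of the 6 endothelial adhesion molecules that recruit leukocytes none was called by limma against PBS, also at an unadjusted p under 0.05, and 3 were lower than with ovalbumin, among them Selp, which encodes P-selectin (-1.45), and Vcam1 (-0.66). The median of the 6 against PBS was 0.02.

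Remodelling genes went both ways, with 7 of 15 members up, 4 down and a median of 0.46, and against ovalbumin 3 were higher and 8 lower. Timp1, an inhibitor of matrix metalloproteinases, was at 7.17, 7.34 and 7.54 in resiquimod lungs, against 6.16, 6.57 and 6.11 in PBS lungs (1.07 ± 0.15, adjusted p = 8.7e-05), and lay 1.49 below ovalbumin. Serpina3n, a serine protease inhibitor, rose by 1.56 ± 0.12 (adjusted p = 3.1e-07), Ctsk, a collagen-degrading cathepsin, by 0.98 ± 0.18, and Tgfb1, the profibrotic cytokine, by 0.85 ± 0.12. Tgfb2, Igf1, Tnc and Postn, which are matrix-promoting factors and matrix proteins, fell by 0.86, 0.93, 0.60 and 0.41. Without the arrays with squamous transcripts 4 members were called higher and 0 lower, and 2 were lower without the first or the third resiquimod array or the first or second PBS array, each of which ended the call of Igf1. Of the lipid mediator list 6 of 16 members rose and none fell, with 6 higher and 1 lower at an unadjusted p under 0.05, and 2 were higher than with ovalbumin, where the median was -0.01. Alox5ap, the 5-lipoxygenase activating protein of leukotriene synthesis, led it (0.98 ± 0.13), followed by Hpgds and Tbxas1, the synthases of prostaglandin D2 and thromboxane (0.61 ± 0.16 and 0.60 ± 0.12). Hpgds was not called without the third resiquimod or the third PBS array, and limma called none of the list on the arrays free of squamous transcripts.

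Cell cycle genes were above both PBS and ovalbumin. In this list 40 of 41 members rose against PBS, none fell at either threshold, and the median was 1.32, while 31 were higher than with ovalbumin (median 0.68). Top2a, the topoisomerase of dividing cells, was at 8.03, 8.09 and 8.02 in resiquimod lungs and 7.06, 7.30 and 7.27 in ovalbumin lungs, against 5.32, 5.66 and 5.41 in PBS lungs. The groups formed 3 separate steps, with a change of 2.58 ± 0.16 against PBS (adjusted p = 2.2e-08) and 0.84 against ovalbumin (adjusted p = 0.0034). Birc5, the mitotic survivin, Cdca5, a cohesin regulator, Ccnb2, a mitotic cyclin, Rrm2, which makes deoxynucleotides, and Mki67, the Ki-67 antigen, rose by 2.96, 2.85, 2.56, 2.55 and 2.53. Without the arrays with squamous transcripts 34 of 41 were called, with a median of 1.27.

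The acute phase protein Saa3, made by macrophages and epithelium, was raised beyond the ovalbumin level. It was at 8.46, 9.59 and 8.97 in resiquimod lungs and 7.31, 7.58 and 7.22 in ovalbumin lungs, against 5.47, 5.39 and 5.51 in PBS lungs (3.54 ± 0.22, adjusted p = 2.0e-08). Of the acute phase list 2 of 14 members rose, the other being Lcn2, the iron-withholding lipocalin (1.33 ± 0.15), and the median was 0.07. Against ovalbumin 2 members were higher as well, with a median of -0.13.

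**Figure D4:**
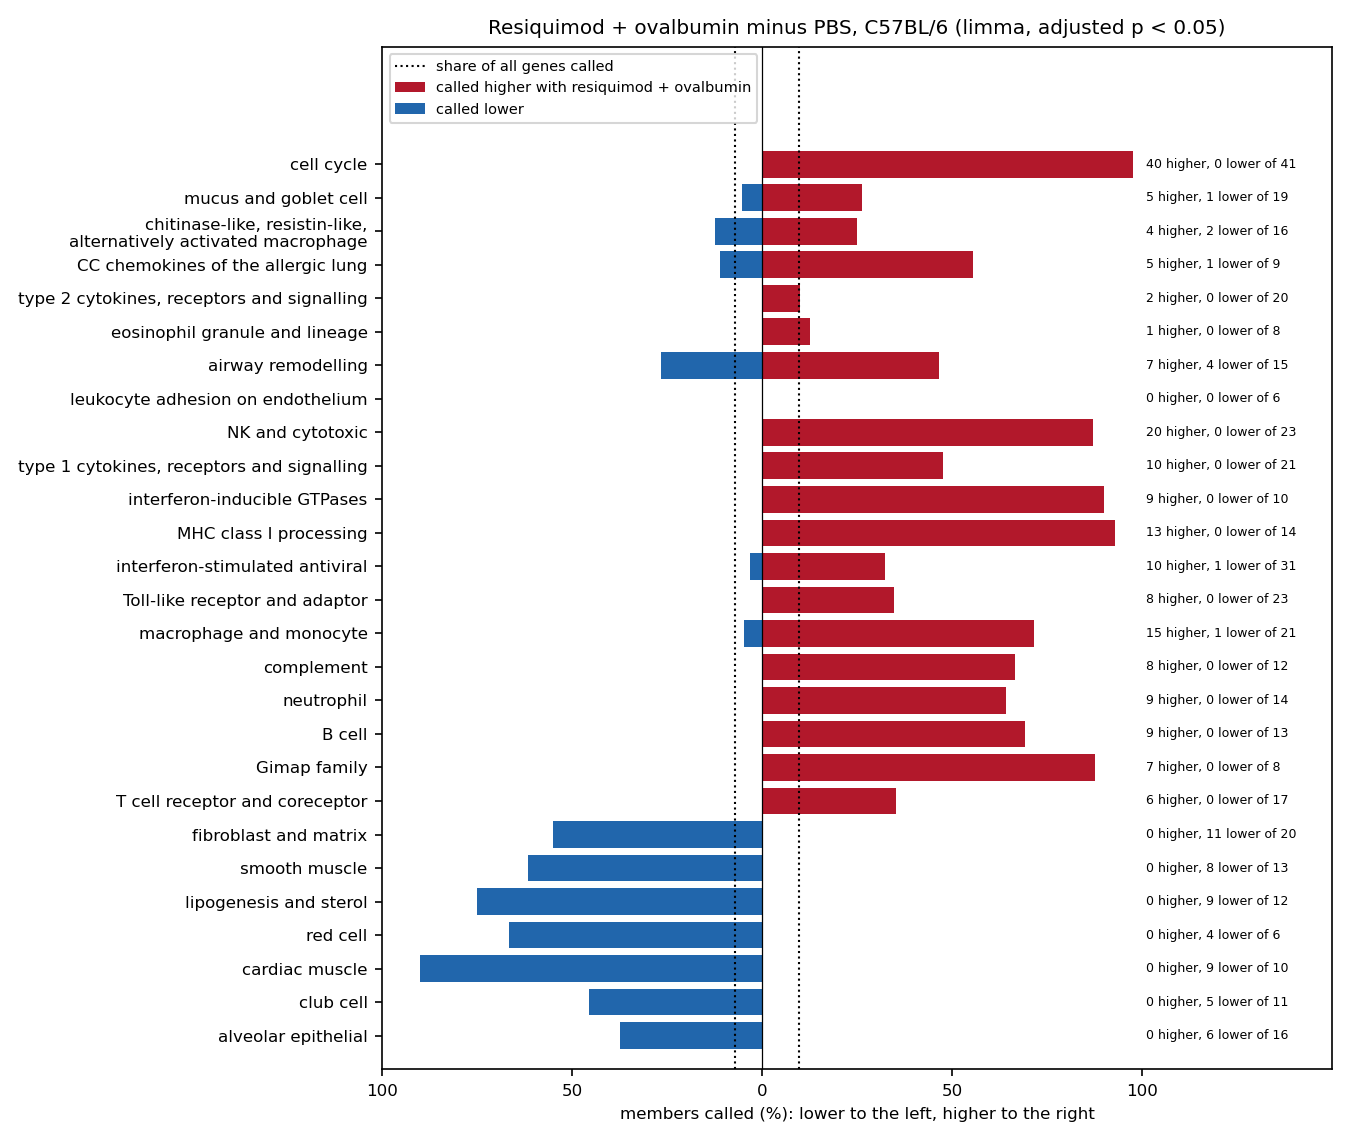
Share of the measured members of each gene list called higher (right) or lower (left) in C57BL/6 lungs with resiquimod and ovalbumin minus PBS, with the counts at the right edge. Dotted lines mark the shares of all genes, 9.61% higher and 7.16% lower. Cell cycle, NK, interferon-inducible GTPase and MHC class I lists have most of their members to the right, and red cell, heart muscle and lipogenesis lists to the left.

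Beside the allergen-responsive genes stood those of NK cells and cytotoxic lymphocytes, of which 20 of 23 members rose and none fell, at either threshold, with a median of 2.34. Gzmb, the granzyme that starts apoptosis in target cells, was at 9.62, 9.36 and 9.47 in resiquimod lungs and 5.30, 5.13 and 5.11 in ovalbumin lungs, against 5.08, 5.67 and 5.03 in PBS lungs, an 18.7-fold difference between resiquimod and PBS (4.22 ± 0.18, adjusted p = 3.3e-10). Gzma, a second granzyme, was at 11.76, 11.63 and 11.72 in resiquimod lungs and 7.53, 7.90 and 7.58 in PBS lungs, a 16.4-fold difference. The pore-forming Prf1 rose by 3.34 ± 0.20, the granule protein Nkg7 by 3.29 ± 0.15 and the chemokine Ccl5 by 3.47 ± 0.15. Receptors of NK cells rose with them, including Klrg1 (3.05 ± 0.15), Klrk1, which encodes Nkg2d (2.74 ± 0.15), Klrd1, which encodes Cd94 (2.56 ± 0.16), and Ncr1, which encodes the NK-lineage receptor Nkp46 (2.34 ± 0.14). In every one of these genes the 3 resiquimod arrays lay above the 3 PBS arrays. For Gzmb, Gzma, Prf1, Nkg7, Ccl5 and Klrg1 this was a condition of being named among the largest rises. The share of all genes with such a separation is not given.

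Klra7 and Klra8, which encode the Ly49 receptors Ly49G and Ly49H, had the largest and the fourth largest measured rise. Klra7 was at 7.57, 7.13 and 7.41 in resiquimod lungs, against 2.96, 3.06 and 2.97 in PBS lungs, a measured change of 4.37 ± 0.10 (adjusted p = 1.3e-13). The PBS values lie under 3.33, among the weakest signals of the array, so the size and rank of this rise are not settled by these values. Klra8 was at 7.65, 7.26 and 7.66 in resiquimod lungs, against 3.39, 3.49 and 3.86 in PBS lungs (3.94 ± 0.13, adjusted p = 1.6e-11). Ly49 genes form a family of near-identical copies whose number differs between mouse strains, so signal may be shared between its members. The cytotoxic list was also high against ovalbumin, with 20 members higher and a median of 2.36, and with ovalbumin alone none was called by limma against PBS (2 higher and 1 lower at an unadjusted p under 0.05). On the arrays free of squamous transcripts 19 of 23 were called, and leaving out any 1 of the 6 arrays gave 20 to 22.

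Regulators of type 1 immunity rose in the same lungs. Tbx21, the T-bet factor of NK and type 1 T cells, was at 6.48, 5.97 and 6.42 in resiquimod lungs, against 3.38, 3.54 and 3.10 in PBS lungs (2.95 ± 0.16, adjusted p = 6.9e-09). Ebi3, a subunit shared by heterodimeric cytokines of the interleukin-12 family, rose by 1.64 ± 0.13, Stat4, the factor activated by interleukin-12, by 1.62 ± 0.14, and Il18rap, a chain of the interleukin-18 receptor, by 1.48 ± 0.08. Ifng, the type 1 cytokine interferon gamma, was at 3.76, 3.26 and 4.62 in resiquimod lungs, against 2.98, 2.67 and 2.94 in PBS lungs (1.02 ± 0.28, adjusted p = 0.023). Its call was lost without the third resiquimod array, which held the highest value, and without the second or the third PBS array, and Il12b, the p40 chain of interleukin-12, changed by 0.10 and was not called. In the type 1 list 10 of 21 members rose and none fell, with 10 higher and 1 lower at an unadjusted p under 0.05, and 6 rose without the third resiquimod array and 5 without the arrays with squamous transcripts. Against ovalbumin 7 were higher and 1 lower, with a median of 0.22.

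Cxcl9 and Cxcl10, ligands of the type 1 lymphocyte receptor Cxcr3, rose as well. Cxcl9 was at 7.91, 7.72 and 8.16 in resiquimod lungs and 6.13, 6.32 and 6.78 in ovalbumin lungs, against 3.90, 4.36 and 3.91 in PBS lungs (3.87 ± 0.17, adjusted p = 5.8e-10), with the ovalbumin lungs in between. Cxcl10 was at 6.39, 6.51 and 7.07 in resiquimod lungs and 6.29, 6.26 and 6.97 in ovalbumin lungs, which overlap, against 4.27, 4.89 and 5.33 in PBS lungs (1.83 ± 0.27, adjusted p = 0.00022). The inflammatory chemokines Ccl3 and Ccl4 rose by 2.06 ± 0.31 and 1.57 ± 0.24, and Cxcr3 itself by 1.53 ± 0.20. Cxcl10 lost its call without the arrays with squamous transcripts and in those arrays alone, and Ccl3 lost it without them.

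Interferon-inducible GTPases, which act against intracellular parasites, rose in 9 of 10 members with a median of 0.63. Gbp6 was at 8.40, 8.36 and 8.58 in resiquimod lungs, against 6.82, 7.55 and 6.97 in PBS lungs (1.33 ± 0.20, adjusted p = 0.00019), and Gbp8, Gbp2 and Igtp rose by 1.21, 0.79 and 0.75. The call of Igtp was lost without the first or the third array of either group. The second PBS array was the highest PBS array for each of these except Gbp2, where it shared that place with the third. On the arrays free of squamous transcripts, where that PBS array alone stands for the PBS group, limma called 0 of them, and the median change was 0.47. With ovalbumin alone none was called against PBS by limma (3 higher and 0 lower at an unadjusted p under 0.05), and 5 of 10 were higher with resiquimod than with ovalbumin.

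These genes are known targets of interferon signalling through the interferon-stimulated response element, to which Irf proteins bind. The letters GAAA, any 2 bases and GAAA were searched, on both strands, in the 250 bases before each transcription start in RefSeq's promoters (build GRCm38.p6), overlaps allowed. Of 14452 genes with an entry 453 held a match (3.13%), as did 76 of the 1396 genes called higher that had an entry (5.44%), 6 of the 7 GTPases with an entry (85.7%) and 8 of 22 antiviral genes (36.4%). A match is a description of these letters and not evidence of binding, and the GTPase genes are related copies. The stretches around the matches of the 6 GTPases, of Cxcl10 and of the antiviral gene Oas1a are shown because the same short letters recur in them, written 5′ to 3′ on the strand of the gene, with the matches in capitals.
Gbp2, chr3:142620579-142620638, plus strand: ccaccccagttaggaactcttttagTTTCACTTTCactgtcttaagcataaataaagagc
Gbp3, chr3:142559974-142560039, plus strand: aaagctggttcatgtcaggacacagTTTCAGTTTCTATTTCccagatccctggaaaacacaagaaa
Gbp7, chr3:142530258-142530317, plus strand: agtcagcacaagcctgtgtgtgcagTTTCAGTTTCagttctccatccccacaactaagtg
Igtp, chr11:58199497-58199555, plus strand: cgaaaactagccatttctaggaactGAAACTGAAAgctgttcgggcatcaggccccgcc
Irgm2, chr11:58214888-58214947, plus strand: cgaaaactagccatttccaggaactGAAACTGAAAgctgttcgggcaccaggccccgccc
Irgm1, chr11:48871421-48871475, minus strand: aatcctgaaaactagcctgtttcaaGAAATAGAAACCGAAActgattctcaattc
Cxcl10, chr5:92349068-92349127, minus strand: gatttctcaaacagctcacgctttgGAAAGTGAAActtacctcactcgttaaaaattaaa
Oas1a, chr5:120907526-120907570, minus strand: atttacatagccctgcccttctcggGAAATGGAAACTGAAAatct
Gbp3, Gbp7, Irgm1 and Irgm2 rose by 0.57, 0.53, 0.54 and 0.56. The matches shown began between 20 bases (Oas1a) and 213 bases (Cxcl10) before the start. Rsad2, an antiviral gene whose match is not shown, fell by 0.67. The letters TTC, any 4 bases and GAA, to which Stat6 of the interleukin-4 pathway binds, were found before 855 of the 14452 genes (5.92%). They were found in 0 of 10 mucus genes, 4 of 22 antiviral genes (18.2%), 1 of 7 GTPases (14.3%) and 1 of 34 cell cycle genes (2.94%). The letters TTC, any 3 bases and GAA were found before 1073 genes (7.42%). They were found in 5 of 22 antiviral genes, 3 of 7 GTPases and 1 of 34 cell cycle genes. Before Retnla the Stat6 letters occur once, and a link between these letters and the level of a gene was not tested.
Retnla, chr16:48842439-48842498, plus strand: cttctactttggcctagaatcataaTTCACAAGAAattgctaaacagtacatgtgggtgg

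Among the antiviral genes of the type I interferon response 10 of 31 members rose and 1 fell, with a median of 0.22, whereas 3 were higher and 1 lower than with ovalbumin, with a median of 0.06. Zbp1, a sensor of Z-form nucleic acid, was at 6.81, 6.67 and 6.88 in resiquimod lungs, against 5.01, 5.31 and 5.39 in PBS lungs (1.55 ± 0.20, adjusted p = 6.6e-05). Irf7, the master regulator of type I interferon genes downstream of Tlr7, was at 7.94, 7.68 and 7.87 in resiquimod lungs, against 6.32, 6.28 and 6.35 in PBS lungs (1.51 ± 0.12, adjusted p = 2.8e-07), and was 1.10 above ovalbumin. Oas1a, a sensor of double-stranded RNA, rose by 1.00 ± 0.12 and was 0.25 above ovalbumin, which was not called (adjusted p = 0.23). Rsad2, the antiviral protein viperin, fell by 0.67 ± 0.18 (adjusted p = 0.022), a call lost without the first or second resiquimod or the second PBS array. The number of members that rose was 5 without the first resiquimod array, 6 without the third, and 2 without the arrays with squamous transcripts.

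Genes that load peptides onto MHC class I molecules rose nearly as a whole, 13 of 14 with a median of 0.60, and 12 of them were also higher than with ovalbumin. Tap1, a subunit of the peptide transporter, was at 7.61, 7.73 and 7.78 in resiquimod lungs, against 6.24, 6.60 and 6.26 in PBS lungs (1.34 ± 0.18, adjusted p = 7.3e-05). Of its 4 probe sets 1 was called, and the lowest change was -0.02. The immunoproteasome subunits Psmb8 and Psmb9 rose by 1.18 ± 0.11 and 1.05 ± 0.10, Nlrc5, the transactivator of class I genes, by 1.15 ± 0.19, and the heavy chain H2-K1 by 0.78 ± 0.07. When arrays with squamous transcripts were left out, 4 of 14 were called, with a median of 0.57. In the class II list 4 of 12 rose with a median of 0.16, and these were H2-Oa and H2-Ob, modulators of peptide loading in B cells, the protease Ctss and the costimulator Cd86. In this list 2 were called without the third PBS array, which ended the call of H2-Oa, and 1 without the arrays with squamous transcripts. Against ovalbumin 3 class II genes were higher, with a median of -0.01. H2-Ob lost its call without any 1 of the 6 arrays except the second PBS array.

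Macrophage and monocyte genes rose in 15 of 21 members, with 1 lower and a median of 1.11. Fcgr4, the activating immunoglobulin G receptor of non-classical monocytes and neutrophils, was at 8.84, 8.78 and 8.89 in resiquimod lungs, against 5.12, 5.75 and 5.50 in PBS lungs, a 10.4-fold difference (3.37 ± 0.14, adjusted p = 3.2e-10). Spn, which encodes Cd43, was at 7.74, 7.58 and 7.57 against 5.25, 5.16 and 5.55 in PBS lungs, and Treml4, a receptor of patrolling monocytes, rose by 2.31 ± 0.25. Both are high in the Ly6C-low monocytes, as is Cx3cr1, which rose by 1.27 ± 0.13. Adgre1, the macrophage marker F4/80, rose by 1.90 ± 0.14, and Apoe fell by 0.83 ± 0.15. Against ovalbumin 13 members were higher and none lower (15 higher and 1 lower at an unadjusted p under 0.05). With the squamous-positive arrays left out, 10 of 21 were called higher.

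Of the complement list 8 of 12 members rose and none fell at either threshold, with a median of 1.10, and 7 were higher than with ovalbumin (median 0.46). Cfb, factor B of the alternative pathway, was at 8.21, 8.24 and 8.24 in resiquimod lungs, against 6.52, 6.50 and 6.56 in PBS lungs (1.70 ± 0.09, adjusted p = 5.3e-09). The recognition subunits C1qb and C1qc rose by 1.56 ± 0.14 and 1.36 ± 0.13, and C3ar1, the anaphylatoxin receptor, by 1.31 ± 0.14. On the arrays free of squamous transcripts 6 of the 12 were called.

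Neutrophil genes rose in 9 of 14 members with a median of 0.89, and 7 were higher than with ovalbumin (median 0.75). They were led by Ngp, a granule protein of immature neutrophils (2.03 ± 0.31), Mmp8, the neutrophil collagenase (1.69 ± 0.30), and Fpr2, a formyl peptide receptor (1.54 ± 0.19). S100a8, a subunit of calprotectin, was at 11.18, 11.08 and 10.92 in resiquimod lungs, against 9.86, 9.33 and 10.33 in PBS lungs (1.22 ± 0.38, adjusted p = 0.043), and lost its call without any 1 of the 6 arrays except the third PBS array. Of the 6 chemokines that attract neutrophils 1 was called, the epithelial Cxcl15, which fell by 0.32 ± 0.06, and their median was 0.05. The neutrophil count was 5 without the first or the second resiquimod array or the first or second PBS array, and 1 without the arrays with squamous transcripts.

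B cell genes rose in 9 of 13 members and fell in none at either threshold, with a median of 1.20, and the same number was higher than with ovalbumin. Cd72, a B cell coreceptor, was at 7.69, 7.53 and 7.51 in resiquimod lungs, against 4.86, 4.98 and 5.03 in PBS lungs (2.62 ± 0.26, adjusted p = 3.8e-06). Ms4a1, which encodes Cd20, was at 8.63, 9.06 and 8.92 against 6.90, 7.09 and 6.90 in PBS lungs, and Cd79b, a signalling chain of the antigen receptor, rose by 1.39 ± 0.29. Among arrays free of squamous transcripts 4 of the 13 were called. Among plasma cell genes 3 of 9 rose and 1 fell, and 2 were higher and 1 lower than with ovalbumin. Mzb1, which assists antibody secretion, was at 9.45, 10.69 and 9.14 in resiquimod lungs, against 6.78, 7.29 and 6.72 in PBS lungs (2.83 ± 0.40, adjusted p = 0.00014), and the second resiquimod array was the highest for Mzb1, Pou2af1 and Derl3. Sdc1, which marks plasma cells and also epithelium, fell by 0.49 ± 0.07. The call of Derl3 was lost without the second resiquimod array or the first or the third PBS array, and 2 plasma cell genes rose and 0 fell without the arrays with squamous transcripts.

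T cell receptor and coreceptor genes rose in 6 of 17 members, with a median of 0.37, and 5 were higher than with ovalbumin (median 0.21). Cd2, shared by T and NK cells, was at 8.12, 8.31 and 8.27 in resiquimod lungs, against 6.54, 6.95 and 6.75 in PBS lungs (1.49 ± 0.13, adjusted p = 1.3e-06). Cd28, Cd8b1 and Cd27 were also called higher, by 0.84, 0.71 and 0.69. The call of Cd27 was lost without the first resiquimod or the first PBS array. Cd3e, Cd4 and Cd8a changed by 0.04, -0.10 and 0.19 and were not called. The Gimap GTPases, which support lymphocyte survival, rose in 7 of 8 members, and 7 were higher than with ovalbumin. Gimap7 was at 7.76, 7.75 and 7.66 in resiquimod lungs, against 4.68, 5.17 and 4.43 in PBS lungs (2.96 ± 0.24, adjusted p = 4.2e-07). When arrays with squamous transcripts were left out, 4 of 8 Gimap genes and 1 of 17 T cell genes were called. Of the regulatory and checkpoint list 4 of 14 rose, and 3 were higher and 1 lower than with ovalbumin. Ido1, the tryptophan-degrading enzyme that restrains T cells, was at 5.13, 5.14 and 5.02 against 3.36, 3.47 and 3.63 in PBS lungs (1.61 ± 0.09, adjusted p = 1.1e-08). Cd274, the checkpoint ligand PD-L1, rose by 0.77 ± 0.13, and Foxp3, the factor of regulatory T cells, changed by 0.02 and was not called.

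Among red cell genes, Alas2 had the largest measured fall of any gene. Alas2, the first enzyme of heme synthesis in erythroid cells, was at 4.76, 5.55 and 5.07 in resiquimod lungs and 9.63, 9.27 and 9.83 in ovalbumin lungs, against 9.61, 9.97 and 9.56 in PBS lungs, and was 24.0-fold lower with resiquimod than with PBS (-4.59 ± 0.24, adjusted p = 3.1e-09). Hbb-b2, a beta globin chain that is not in the list, was at 2.45, 2.99 and 3.18 against 6.47, 6.39 and 6.39 in PBS lungs. Its resiquimod values lie under 3.33, so the size of this fall is not settled. Its other probe set changed by -0.41 and was not called. In the red cell list 4 of 6 members fell by limma and none rose, at either threshold, and 4 were lower than with ovalbumin. The others called against PBS were Slc4a1, the anion exchanger of the red cell membrane, the iron carrier Slc25a37, and Fech. Slc4a1 and Slc25a37 fell by 1.17 and 1.07. With the squamous-positive arrays left out, 3 were called. The globin genes are near-identical copies. Blood retained in the lung was not measured separately.

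Matrix and smooth muscle genes fell below both PBS and ovalbumin. Col3a1, a fibrillar collagen, was at 10.64, 10.83 and 10.68 in resiquimod lungs, against 11.79, 12.04 and 11.66 in PBS lungs (-1.12 ± 0.15, adjusted p = 7.7e-05), and it was 1.38 below ovalbumin on the log2 scale. Eln, Col1a1 and Col1a2, which encode elastin and the chains of collagen I, fell by 1.06, 0.93 and 0.81. Of the fibroblast and matrix list 11 of 20 fell and none rose at either threshold, with a median of -0.42, and 10 were lower than with ovalbumin. In the smooth muscle list 8 of 13 fell with a median of -0.40, led by the contractile proteins Cnn1 (-0.50 ± 0.08) and Tagln (-0.47 ± 0.08), and 11 were lower than with ovalbumin. On the arrays free of squamous transcripts 7 of the 20 matrix genes were called lower and 0 of the 13 smooth muscle genes. Leaving out the first resiquimod array, or the first or the third PBS array, left 5 smooth muscle genes called.

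Fat synthesis genes fell in 9 of 12 members, with a median of -0.64, and 5 were lower than with ovalbumin (median -0.40). Fasn, the fatty acid synthase, was at 9.50, 9.51 and 9.47 in resiquimod lungs, against 10.90, 10.90 and 10.98 in PBS lungs (-1.43 ± 0.20, adjusted p = 0.00011), and Me1, which supplies its reducing power, fell by 1.59 ± 0.22. Scd1, a desaturase that alveolar and fat cells share, fell by 1.22 ± 0.12. Thrsp, a lipogenic factor of fat and liver, was at 4.70, 6.44 and 4.84 in resiquimod lungs, against 9.38, 9.84 and 9.33 in PBS lungs, and it varied widely among the ovalbumin lungs (6.44 in the lowest). Adipose transcripts as a list averaged 5.43, 6.78 and 5.47 on the resiquimod arrays, against 7.25, 7.46 and 7.72 on the PBS arrays, and heart muscle genes fell in 9 of 10 members, and 7 of the list were lower than with ovalbumin, with the sarcomere protein Tnnc1 at 6.64, 7.40 and 6.76 against 9.26, 9.46 and 9.05 in PBS lungs. Among arrays free of squamous transcripts 4 of 12 fat synthesis genes and 8 of 10 heart muscle genes were called lower. How much of the fall of the fat synthesis genes goes with the adipose or heart muscle transcripts on each array was not tested.

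Epithelial genes of the lung itself fell a little. Of alveolar genes 6 of 16 fell, with a median of -0.21, among them Lpcat1, which makes surfactant lipid (-0.41 ± 0.07), and Slc34a2, a phosphate transporter of type 2 cells (-0.30 ± 0.08), and leaving out any 1 of the 6 arrays left 2 or 3, with Slc34a2 lost without the second resiquimod or the first PBS array. Of club cell genes 5 of 11 fell, led by the secretoglobin Scgb3a1 (-0.58 ± 0.08), and 3 without the second PBS array. Against ovalbumin 3 alveolar and 4 club cell genes were lower. When arrays with squamous transcripts were left out, none of these alveolar and club cell genes was called by limma. Cyp1a1, a target of the aryl hydrocarbon receptor in endothelium and epithelium, was at 3.99, 3.70 and 3.42 in resiquimod lungs, against 6.63, 9.08 and 5.92 in PBS lungs (-3.51 ± 0.53, adjusted p = 0.00025), with the second PBS array far above the others. Endothelial genes went both ways, with 5 of 21 higher and 3 lower, including Nos3 (0.67 ± 0.12), which makes nitric oxide, and the apelin receptor Aplnr (-0.78 ± 0.10). The count of 5 was 3 without the first or the third resiquimod or the third PBS array, and the count of 3 was 1 without the first or second resiquimod or the first or the third PBS array. Without the arrays with squamous transcripts 1 was higher and 1 lower, and against ovalbumin 6 were higher and 2 lower. Of the clock genes 5 of 15 fell and 1 rose, and Nr1d1, the repressor Rev-erb alpha, was at 7.42, 7.30 and 7.35 in resiquimod lungs, against 8.38, 8.31 and 8.37 in PBS lungs. The 1 clock gene that rose was called in the absence of the third PBS array and of no other, and 3 fell without the first or the third resiquimod array, the first PBS array or the arrays with squamous transcripts. Against ovalbumin 3 clock genes were lower. The labels give no hour of the day at which lungs were taken. Of the motile cilia list 2 of 11 members fell, of the adipose list 2 of 10, and of the mast cell and basophil list 1 of 14, the histamine-forming enzyme Hdc. Of the dendritic cell list 4 of 16 rose, among them Fscn1, Irf4 and Itgax, and 3 fell, among them Cd209a and Ccl22. Of the glucocorticoid-responsive list 2 of 13 rose and 1 fell, and of the endoplasmic reticulum folding list 1 of 15 rose. Apart from that of the mast cell and basophil list, these small counts depend on single arrays. The motile cilia count was 0 or 1 without any 1 of the 6 arrays, and the adipose count was 4 without the second resiquimod array. The dendritic cell genes that rose numbered 2 without the second resiquimod array or the first or the third PBS array. In the glucocorticoid-responsive list the risers ran from 0 (without the second resiquimod or the first PBS array) to 4 (without the second PBS array), with 1 without the first resiquimod or the third PBS array, and the fall was lost without the second resiquimod or the first PBS array. The endoplasmic reticulum count was 2 without the second PBS array and 0 without the second resiquimod, the first PBS or the third PBS array. Against ovalbumin 5 motile cilia, 2 adipose, 1 mast cell and basophil, 6 dendritic cell, 1 glucocorticoid-responsive and 5 endoplasmic reticulum folding genes were lower, and 1 dendritic cell gene was higher. In the immediate early, thymus, squamous and skeletal muscle lists limma called none, and at an unadjusted p under 0.05 it called 1 higher in the first, 1 lower in each of the thymus and squamous lists, and 0 in the skeletal muscle list.

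Seen from the whole list of genes, 286 of the 1749 genes called higher in C57BL/6 resiquimod lungs (16.4%) had been raised by ovalbumin in A/J, 5 had been lowered and 1458 (83.4%) were not called there. The 10 largest of those not called were Klra7, Gzmb, Klra8, Ccl5, Fcgr4, Prf1, Nkg7, Klrg1, Gimap7 and Tbx21, and their changes with ovalbumin alone in C57BL/6 lay between -0.35 (Klra8) and 0.55 (Klrg1), none called. The 10 largest among the A/J ovalbumin genes were Cxcl9, Clca1, Saa3 and 7 genes of cell division, and the 5 smallest were Mgl2, Col3a1, Pcx, Col1a1 and Aass, which fell by 1.92, 1.12, 1.06, 0.93 and 0.72. The call of Aass was lost without any 1 of the 6 arrays. A gene not called for ovalbumin in A/J may still respond to it below the threshold.

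The same contrast in A/J called 1066 genes higher and 959 lower. Its group means share no array with those of C57BL/6, but the calls of both strains use the same estimate of spread. The genes called higher in both strains numbered 717, which is 41.0% of the C57BL/6 genes and 67.3% of the A/J genes, and those called lower in both numbered 505, or 38.8% and 52.7%. The difference between strains was itself tested, and 171 of 18193 genes (0.94%) were called. In the cytotoxic list 7 of 23 members and in the cell cycle list 10 of 41 had such a difference. Klra7 and Klra8 differed by 4.31 and 3.94 between strains, and A/J resiquimod lungs held 2.58, 2.64 and 2.74 for Klra7 and A/J PBS lungs 2.57, 2.53 and 2.67. Gzmk was at 5.25, 4.13 and 5.16 in C57BL/6 resiquimod lungs and rose by 1.51 ± 0.20, and in A/J it changed by -0.13, an interaction of 1.64 (adjusted p = 0.011). S1pr5, a receptor that guides NK cells out of marrow and nodes, rose by 1.94 ± 0.16 in C57BL/6 and changed by 0.36 in A/J. In the opposite direction, Cxcl3, a neutrophil-attracting chemokine, was at 2.59, 2.44 and 3.32 in C57BL/6 resiquimod lungs, against 2.65, 2.47 and 2.34 in PBS lungs, while A/J resiquimod lungs held 6.88, 9.25 and 6.83 against 2.46, 2.45 and 2.38 in A/J PBS lungs (measured interaction -4.94, adjusted p = 0.00092). All these groups except the A/J resiquimod lungs lie near or under 3.33, so the size of this difference is not settled, and the same holds for Klra7 in PBS lungs and in A/J. Lox, the collagen cross-linking enzyme, changed by -0.35 in C57BL/6 and by 1.60 in A/J. For Gzmb, Gzma, Prf1, Clca1 and Muc5ac the interaction was between -0.05 and 0.50 and was not called.

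**Figure D5:**
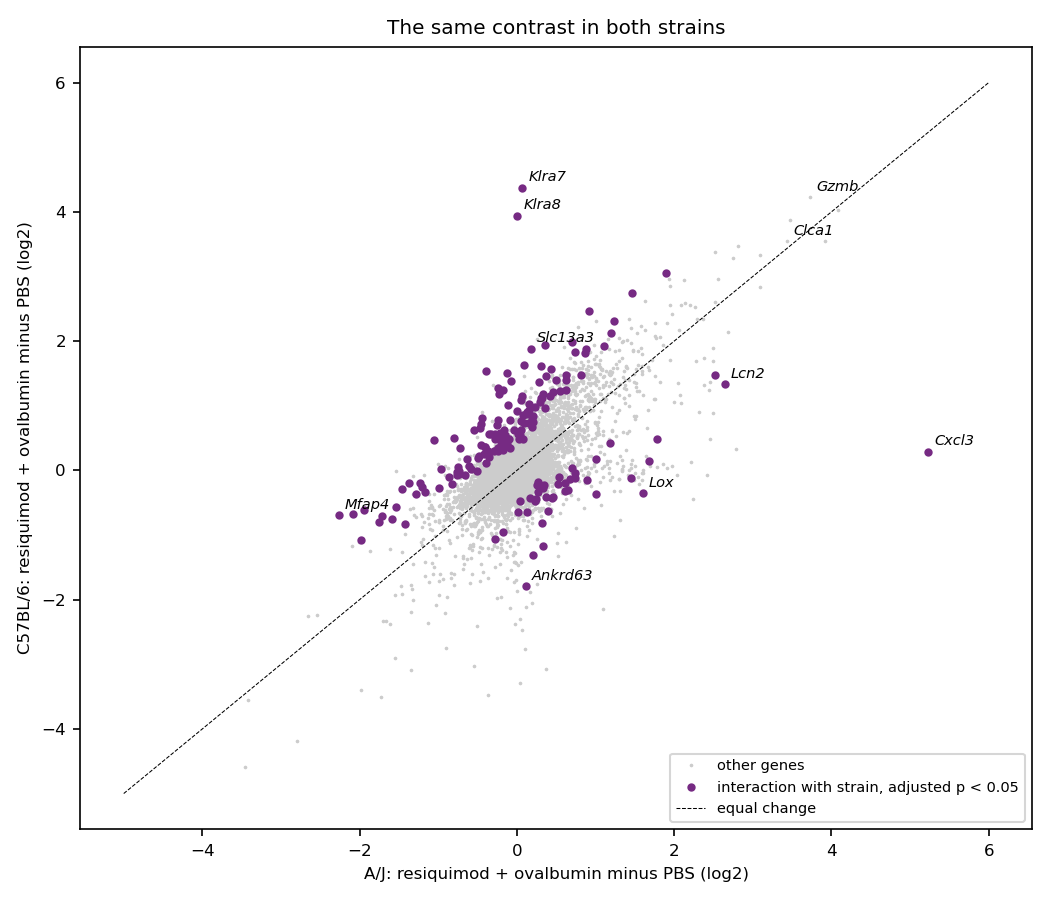
Change with resiquimod and ovalbumin minus PBS in A/J lungs (horizontal axis, log2) against the same change in C57BL/6 lungs (vertical axis, log2), 1 point per gene, with genes whose change differs between strains in purple and a dashed line of equal change. Klra7 and Klra8 rise in C57BL/6 and lie near 0 in A/J, Cxcl3 rises in A/J, and Gzmb and Clca1 lie near the line.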

How the data were processed

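Whole-lung RNA of 18 mice was hybridised to Affymetrix mouse arrays. The deposited table holds log2 expression values that the authors made by RMA in affy, per the submitters' processing notes, which give no versions. RMA equalises the arrays' distributions, so values are relative within an array, and the number of arrays limits precision. The 64 control probe sets were left out and a linear model with 6 group means was applied to the other 45037 over all 18 arrays (limma 3.58.1, R 4.3.3; 12 residual degrees of freedom), with eBayes and two-sided tests adjusted by Benjamini-Hochberg. Of these, 34945 name 1 gene, 932 several and 9160 none, which gave 18193 genes at their probe set of highest mean, with symbols updated by Entrez identifier. The fit was checked on simulated data. List members with no probe set of their own were not analysed here, and 1 list is not reported here.

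The comparison, the 47 gene lists and the alternatives were chosen with earlier results of these data known. Named genes are the 15 largest rises and 15 largest falls whose groups do not overlap, up to 4 called members per list, the extremes of the genes raised by ovalbumin in A/J, the 10 largest changes not called there, the 10 largest interactions with strain, and Tlr7, Il13, Il4, Il5, Ccl11, Muc5ac, Clca1, Ifng and Cxcl10. Other genes were picked after their values were seen. Of the 183 named genes 69 have several probe sets. None was called both higher and lower, but for some of them not every probe set was called. The sample titles call the arrays biological replicates, each taken as 1 mouse, and p-values measure the spread between them. Replicate numbers are shared by the groups, the labels name no pairing, and the main fit used none. The beta-actin control probes for the end and the start of the transcript differed by 0.379 on resiquimod and 0.445 on PBS arrays (log2 means, exact permutation p = 0.3, two-sided, smallest possible 0.1).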

Additional observations from a re-analysis of the deposited data

Results flagged for a closer look

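For 24 named genes the change with resiquimod and ovalbumin minus PBS differed between C57BL/6 and A/J by the interaction test in limma (adjusted p under 0.05). Values are the C57BL/6 change minus the A/J change in log2, with 3 arrays in each of the 4 groups. Larger in C57BL/6 were the Ly49 receptors Klra7 (4.31) and Klra8 (3.94), Disp2 (1.93), Slc13a3 (1.71), Gzmk (1.64), S1pr5 (1.58), Ido1 (1.30), Cd8b1 (1.17), Klrg1 (1.16), Emcn (1.12), Spn (1.08), Gimap9 (0.776) and Gimap4 (0.709). Mfap4 (1.57), Rsad2 (1.42) and Slc25a37 (0.917) had positive differences while they fell in C57BL/6. Nnt (1.52) and Wdfy1 (1.08) are the genes that differ between C57BL/6 substrains, and the other differences rest on the same PBS arrays. Lower in C57BL/6 than in A/J were the changes of Cxcl3 (-4.94), Lox (-1.95), Ankrd63 (-1.90), Lcn2 (-1.31), Pcx (-0.786) and Mt1 (-0.763). The probes follow 1 reference sequence, and a sequence difference between strains at a probe was not tested.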

How the results depend on the processing

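No named gene that was called reversed its direction under any alternative, and the other called genes were not checked for this. The medians of some lists changed sign, most of them near 0. The chitinase-like and resistin-like list (-0.03) had 0.0033 with the squamous term and 0.14 in the squamous arrays alone, and the type 2 list (0.01) had -0.08 in those arrays alone. In the same arrays the dendritic cell list (-0.07) had 0.0021, and the skeletal muscle list, not near 0 (-1.52), had 0.12. The endoplasmic reticulum folding list (-0.00087) had 0.017 with the squamous term and 0.038 in those arrays. The glucocorticoid-responsive list (-0.13) had 0.057 in them and 0.032 without them, and the eosinophil list (0.08) had -0.03 without them. Of 167 called named genes, 80 kept their call in all 18 settings 37 lost it without 1 array, 74 without the arrays with squamous transcripts, 52 in those arrays alone and 2 with the squamous term. Against PBS, 3195 probe sets were called higher and 2394 lower. These counts were 931 and 431 without the arrays with squamous transcripts, 923 and 236 in those arrays alone, and 539 and 116 with at least a 2-fold change, and 2338 to 2656 and 1515 to 1933 without 1 array. Against ovalbumin, 2081 were higher and 1439 lower. These were 842 and 556 without the arrays with squamous transcripts, 290 and 103 in those arrays alone, and 1372 to 1795 and 887 to 1190 without 1 array, and 886 were lower with the 6 arrays alone. Of the genes raised by ovalbumin in A/J, 286 higher and 39 lower became 161 and 13, and 168 and 5 in the squamous arrays alone, 60 and 6 among those raised at least 2-fold, and 247 to 269 and 26 to 35 without 1 array. Of 288 probe sets with an interaction, 25 were called without the squamous arrays, 14 in them alone, 487 with a trended robust eBayes and 155 to 271 without 1 array. Smaller fits hold fewer arrays, and the other causes were not tested. The squamous term and the squamous arrays alone were chosen after seeing the data.

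Same-numbered resiquimod and PBS arrays correlated at -0.214, -0.585 and -0.349 in their deviations from group means. Resiquimod 2, which carried squamous transcripts, correlated at 0.3 and 0.51 with PBS 1 and PBS 3, which carried them too. The deviations thus go with these transcripts, and the correlations cannot decide whether replicate numbers pair the arrays. With the replicate number as a block 2487 probe sets were higher and 1628 lower against PBS, and 1588 higher and 868 lower against ovalbumin, and 12 named genes lost their call. In the list of genes raised in A/J the block gave 273 higher and 32 lower.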
